A study of Mus musculus with 9 samples.

Results

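The molecular chaperones described here are the 81 genes of the deposited testis count table, out of 19991, whose symbols name an Hsp70 or small heat shock protein (Hspa or Hspb and a number), an Hsp90, a J-protein of class A, B or C (Dnaja, Dnajb, Dnajc), a subunit of the cytosolic chaperonin (Tcp1 and Cct2 to Cct8), or Hspd1, Hspe1 or Hsph1. Membership rests on the symbol alone and not on any measured value. They fall into 11 Hsp70 genes, 3 of the related Hsp110 branch (Hspa4, Hspa4l and Hsph1), 3 Hsp90 genes, 8 small heat shock proteins, 4, 13 and 28 J-proteins of class A, B and C, 9 subunits of the cytosolic chaperonin and both subunits of the mitochondrial chaperonin. In all, 79 of the 81 had enough counts to be tested; Hspb2 and Hspb3 did not.

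Chaperones bind unfolded chains and let them fold or refold. J-proteins hand substrates to Hsp70 and stimulate its ATPase, Hsp90 finishes kinases and receptors, and the barrel-shaped chaperonins enclose a chain, the cytosolic ring being the obligate folding machine of tubulin and actin and the Hspd1 and Hspe1 pair serving the mitochondrial matrix. The testis has germ-cell forms of several of these proteins. Hspa2 is needed by meiotic spermatocytes in the mouse, Hspa1l and Dnajb3 are made by haploid spermatids, Dnajb13 belongs to the radial spoke of the sperm tail, and Hspa4l supports male fertility in the mouse. The inducible genes are switched on by heat shock factors, which bind inverted repeats of a short unit, the heat shock element.

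Bulk testis mRNA was sequenced from 8-week-old mice of the outbred ICR stock. There were 3 libraries after an injection of 50 µM CW069, 3 after an injection of 1 µM AZ82 and 3 after PBS (Control). Both compounds are inhibitors of KIFC1, a minus-end kinesin of the spindle and of the microtubules that shape the spermatid head; all groups received an injection, and their doses differ, so CW069 and AZ82 are not matched. The labels do not say whether the 3 samples of a group came from separate animals, nor how long after the injection they were taken, so the spread behind each p-value is the one among these samples, and it may be technical. Levels are in CPM, the count scaled by TMM library size. In a whole testis, fewer cells of a type and less RNA per cell cannot be told apart.

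Promoter sequences are shown first, because they carry the heat shock elements of the genes discussed below. They are RefSeq windows of 300 bases in build GRCm38.p6, from 250 bases before to 50 after a gene's start; 66 of the 81 genes had at least 1 window, 85 windows in all. The 2-unit element, GAANNTTC or TTCNNGAA on either strand, was present in a window of 19 of these 66 genes (28.8%), against 17.0% of the 27025 genes with a window. The 3-unit element, which contains the 2-unit element and adds another unit after 2 further bases, was present in 4 of 66 (6.06%), against 0.662% of all genes. These 4 were Hspd1, Hspe1, Dnajb6 and the inducible Hsp110 gene Hsph1. Their elements are printed below with capitals marking the bases of the 3-unit matches, 5′ to 3′ on each gene's own strand, whole for Hspe1 (chr1:55087898-55088197, plus strand) and as a stretch for Hspd1 (chr1:55088029-55088106, minus strand), Dnajb6 (chr5:29735822-29735894, plus strand) and Hsph1 (chr5:149636266-149636330, minus strand).
Hspe1: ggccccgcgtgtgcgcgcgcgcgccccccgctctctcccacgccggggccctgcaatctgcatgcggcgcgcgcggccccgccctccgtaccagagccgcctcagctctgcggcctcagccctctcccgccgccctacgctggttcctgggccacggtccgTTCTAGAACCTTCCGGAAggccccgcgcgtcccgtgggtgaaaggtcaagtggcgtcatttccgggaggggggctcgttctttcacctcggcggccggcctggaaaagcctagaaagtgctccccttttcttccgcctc
Hspd1: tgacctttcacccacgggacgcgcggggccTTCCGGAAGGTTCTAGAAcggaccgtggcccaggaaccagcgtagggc
Dnajb6: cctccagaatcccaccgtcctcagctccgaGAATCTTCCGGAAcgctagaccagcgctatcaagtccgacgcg
Hsph1: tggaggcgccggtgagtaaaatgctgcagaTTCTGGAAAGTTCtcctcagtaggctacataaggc
Hspd1 and Hspe1 are head-to-head neighbours on chromosome 1 whose windows are complementary over 285 bases. The capitals of both are therefore the same stretch of DNA read on opposite strands, where 3 of the 2-unit elements overlap and make 2 overlapping 3-unit matches (bases 162 to 179 of the Hspe1 window). The share of 4 in 66 genes thus counts this stretch for both genes. The Hsph1 match begins at position 16 after the start in the window printed.

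A further set shows the neighbours on chromosome 17, the heat-inducible copies Hspa1a and Hspa1b beside the germ-cell gene Hspa1l, together with Hspa2 of chromosome 12. The capitals mark the 2-unit heat shock element in Hspa1a (chr17:34972107-34972406, minus strand) and the CCAAT box, on either strand, in Hspa1l (chr17:34972453-34972752, plus strand) and Hspa2 (chr12:76404120-76404419, plus strand).
Hspa1a: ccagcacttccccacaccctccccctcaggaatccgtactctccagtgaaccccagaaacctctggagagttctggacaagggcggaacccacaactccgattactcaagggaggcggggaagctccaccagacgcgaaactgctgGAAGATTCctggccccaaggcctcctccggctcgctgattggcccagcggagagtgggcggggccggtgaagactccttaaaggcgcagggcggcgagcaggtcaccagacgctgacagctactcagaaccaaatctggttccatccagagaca
Hspa1l: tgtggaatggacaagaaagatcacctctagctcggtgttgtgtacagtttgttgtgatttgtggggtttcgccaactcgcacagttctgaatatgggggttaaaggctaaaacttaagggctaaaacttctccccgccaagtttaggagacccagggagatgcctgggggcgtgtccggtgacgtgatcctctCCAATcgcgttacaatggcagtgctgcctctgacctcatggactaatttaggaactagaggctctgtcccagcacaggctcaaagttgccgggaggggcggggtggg
Hspa2: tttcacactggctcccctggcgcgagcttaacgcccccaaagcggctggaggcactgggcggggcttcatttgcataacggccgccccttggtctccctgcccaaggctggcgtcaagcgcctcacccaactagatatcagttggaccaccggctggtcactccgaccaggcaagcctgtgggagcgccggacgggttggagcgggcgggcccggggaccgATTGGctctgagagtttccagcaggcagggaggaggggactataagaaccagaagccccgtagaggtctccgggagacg
The windows of Hspa1a and Hspa1b were identical at 296 of 300 bases (98.7%); counted from the 5′ end of the window, Hspa1b differed from Hspa1a by C44T, T47C, T249G and C276T. The windows of Hspa1l and Hspa2 held no 2-unit element. A CCAAT box was present in 30 of the 66 genes (45.5%), against 41.1% of all genes, a TATAAA box in 4 (6.06%), against 15.7%, and the cyclic AMP response element TGACGTCA in Dnajc27 alone (1.52%), against 2.03%. A match describes the letters of the window and is not a binding site shown to be in use.

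The libraries held 13856070 to 18102593 counts, of which 1.62% to 1.69% belonged to the 81 chaperones. The label testis was checked against germ and somatic cell markers, and every library held the spermatocyte and spermatid gene Ldhc (2949 to 3401 CPM) and the Leydig cell gene Cyp11a1 (264.9 to 386.3 CPM). Kifc1, whose protein the compounds inhibit, was at 7.981 to 10.51 CPM in the 9 libraries, and a transcript level does not check an inhibitor. Control 3 stood apart from the other libraries. A chi-square test of counts gave 24.6 and 29.1 per degree of freedom for its pairs with the other Control libraries, against 3.34 to 7.21 for the other pairs within a group, so no pair looked like 1 library deposited again. It was low in late spermatid transcripts, with a summed elongating spermatid marker level of 10520 CPM, the lowest of the 9 libraries, where CW069 had 18050 to 20750 CPM and AZ82 21660 to 25380 CPM. Of the 79 tested chaperones, 31 had their lowest value of all 9 libraries in Control 3 and 12 their highest, whereas 18.8% and 16.7% of all tested genes did. Values without Control 3 therefore stand beside many of the results it touches, but not all. Dnajc12 and Hspa5 were highest and Hspa4l, Dnajb1 and Dnajc30 lowest in Control 3, for example, and have no such value here. A missing value does not mean that Control 3 had no part in a result.

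**Figure D1:**
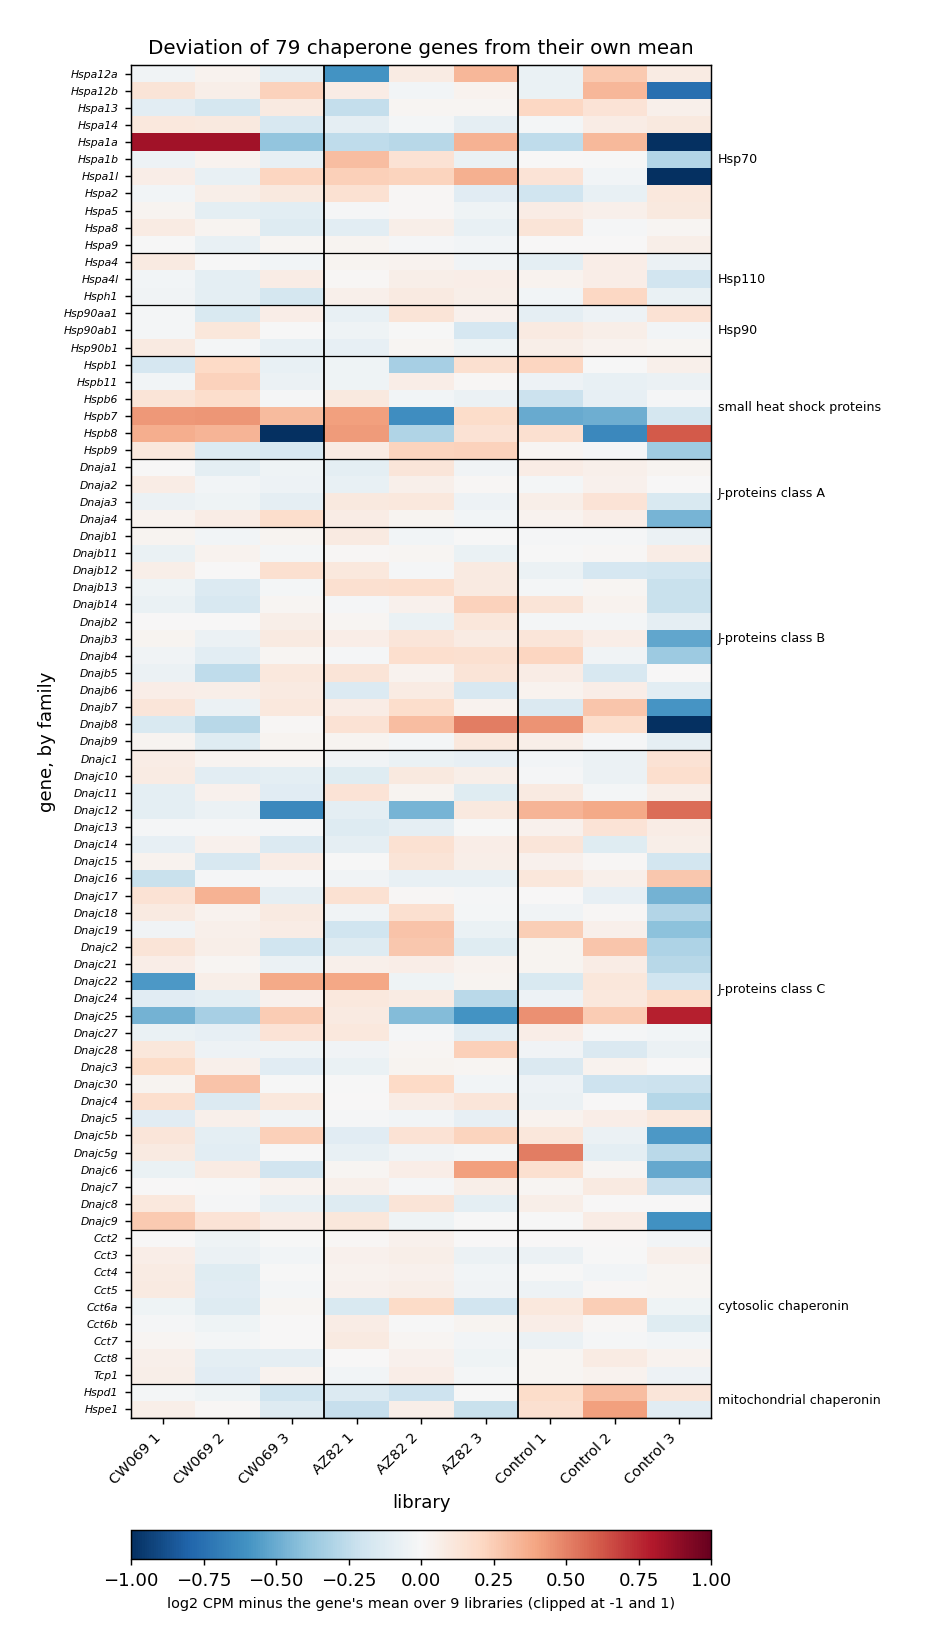
Log2 CPM of each of the 79 tested chaperone genes (rows, by family) in each of the 9 libraries (columns: CW069, AZ82, Control), as the deviation from that gene's mean over the libraries, on a colour scale clipped at -1 and 1. In the right-hand column, Control 3, the germ-cell genes Hspa1l and Dnajb8 are among the lowest cells, at -1.19 and -1.48 on the log2 scale from the mean of the other Control libraries.

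In Control testis the most abundant chaperone transcripts per length were Hsp90aa1, the inducible cytosolic Hsp90, and Tcp1, the first subunit of the cytosolic chaperonin. With the median length of a gene's coding transcripts, Hsp90aa1 reached 1985 ± 176 CPM per kb and Tcp1 1279 ± 40.8 CPM per kb (SD, n = 3). Hsp90ab1, the constitutive Hsp90, followed at 573 ± 24.96, the testis small heat shock protein Hspb9 at 486 ± 66.2, Hspa2 at 473 ± 50.4 and the chaperonin subunit Cct2 at 467 ± 4.78 CPM per kb. Hspa4l at 459 ± 43.7, Cct7 at 391 ± 5.64, the Hsp90 of the endoplasmic reticulum Hsp90b1 at 389 ± 4.75 and Dnajb3 at 369 ± 84.4 CPM per kb completed the highest 10. Neighbours in the stretch Hspb9, Hspa2, Cct2 and Hspa4l did not differ beyond their SD. The order depends on the transcript model, because short coding transcripts enter some medians (711 bases for Hsp90aa1, against 3281 bases for its longest coding transcript linked to RefSeq). With the linked transcripts it opened with Tcp1 at 675 ± 21.5, Hspa2 at 473 ± 50.4, Hspb9 at 462 ± 62.9 and Hsp90aa1 at 430.3 ± 38.2 CPM per kb. Under these lengths and the longest transcript, 7 genes stayed among the highest 10, namely Hsp90aa1, Tcp1, Hspb9, Hspa2, Cct7, Hsp90b1 and Dnajb3.

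**Figure D2:**
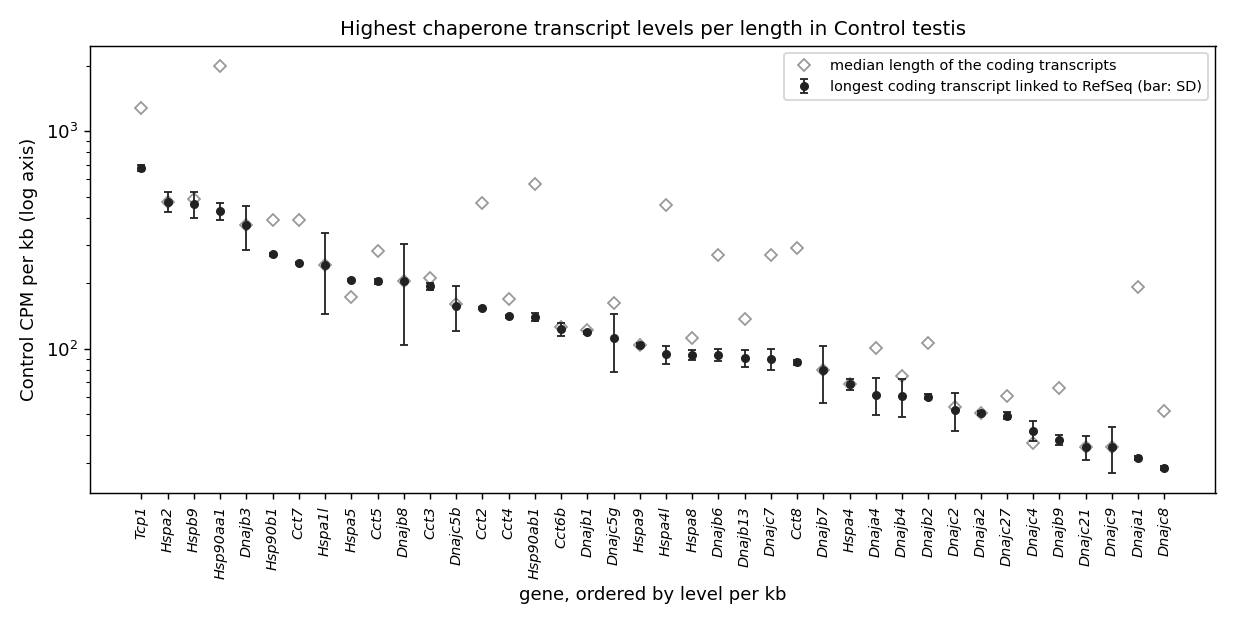
Mean Control level in CPM per kb (log axis) of the 40 chaperone genes with the highest levels; grey diamonds use the median coding transcript length, and black dots with SD bars (3 libraries) the longest coding transcript linked to RefSeq. Hsp90aa1 is at 1985 CPM per kb by the diamond and 430.3 by the dot, while Hspa2 is at 473 and 473.

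Several germ-cell forms stood above their relatives per length in each group. Over RefSeq-linked transcripts, the level of Hspa2 was 5.60 ± 0.648 times that of the constitutive Hspa8 in CW069, 5.63 ± 0.690 times in AZ82 and 5.05 ± 0.716 times in Control (SD, n = 3 each). Hspa1l was 122 ± 16.7 times Hspa1b in CW069, 126 ± 22.6 times in AZ82 and 99.7 ± 32.2 times in Control. Control 3 had the lowest ratio of all libraries, 63.3. The size of this ratio is uncertain, because the counting could split or drop reads that Hspa1b shares with its near-identical copy Hspa1a. Dnajc5b, a cysteine string protein of the testis, was 28.1 ± 4.36 times the synaptic form Dnajc5 in CW069, 28.1 ± 3.87 times in AZ82 and 22.2 ± 5.64 times in Control. Its lowest ratio on the linked transcripts was also that of Control 3, at 15.98. With the median length the Control ratio of Dnajc5b to Dnajc5 was 7.88 ± 2.01. Hspa4l was 1.38 ± 0.125 times Hspa4 in Control on the linked transcripts and 6.69 ± 0.609 times with the median length, so the size of that excess rests on the transcript model. Tcp1 was 4.38 ± 0.0958 times Cct2, another subunit of the ring, in Control on the linked transcripts and 2.74 ± 0.0599 times with the median length.

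The position of the genes bears on how their counts can be read. In the RefSeq annotation, 20 of the 81 overlap another coding gene. Tcp1 overlaps Mrpl18 and Acat3, Hspd1 overlaps Hspe1, Dnajb3 lies among the Ugt1a genes, Dnajb7 overlaps Xpnpep3, Dnajc30 overlaps Bud23, Hspa5 overlaps Rabepk and Hspb6 overlaps Lin37. The library kit marks strand, but whether the counting used strand is not given in the sources used here, so these values are uncertain. Hspa1a and Hspa1b are near-identical copies whose reads the counting could split or drop; Hspa1a had 11 to 43 counts per library. Of 80 genes with an exon count, 9 had a single exon, among them Hspa2, Hspa1a, Hspa1b, Hspb9 and the germ-cell J-proteins Dnajb3, Dnajb7 and Dnajb8.

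No chaperone gene passed the test in any comparison. With edgeR's quasi-likelihood test and Benjamini-Hochberg adjustment over 15834 genes, 0 of 79 were called at an adjusted p under 0.05 in CW069 against Control, where 0.00% of all genes were called higher and 0.00% lower. The count was also 0 in AZ82 against Control (0.00% and 0.00% of all genes), in CW069 against AZ82 (0.00% and 0.00%) and in the mean of both inhibitors against Control (0.00% higher and 0.00632% lower). The smallest adjusted p of a chaperone from edgeR was 0.524 in CW069 against Control, 0.554 in AZ82 against Control, 0.962 in CW069 against AZ82 and 0.479 for the mean of both. DESeq2 and limma-voom also called 0 of them. At an unadjusted p under 0.05, 4 chaperones were higher and 4 lower in CW069 than in Control, against 3.63% and 3.71% of all genes. In AZ82 against Control, 3 were higher (all genes 4.04%) and 5 lower (all genes 4.79%). In CW069 against AZ82, 0 were higher (all genes 2.58%) and 1 lower (all genes 2.39%). For the mean of both inhibitors, 3 were higher (all genes 4.31%) and 6 lower (all genes 5.27%). With 79 genes tested, these counts lie near the background.

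The median log2 fold change of the 79 chaperones was -0.0052 in CW069 against Control, with 36 above 0 (45.6%, all genes 49.0%), and 0.029 in AZ82 against Control, with 49 above 0 (62.0%, all genes 49.7%). Over all genes the medians were -0.0038 and -0.0010. Without Control 3 the chaperone medians were -0.031 in CW069 and -0.011 in AZ82, with 27 and 37 above 0, so the larger number of higher values in AZ82 rested on that library. Scaling by library size alone, which moved the median of all genes to -0.051 in CW069 and -0.081 in AZ82, left 28 and 27 chaperones above 0 (all genes 36.3% and 31.2%). The groups did not overlap for 6 chaperones higher in CW069 than in Control (all genes 6.13%) and 6 lower (all genes 7.24%). In AZ82 against Control they did not overlap for 8 higher (all genes 6.65%) and 9 lower (all genes 8.62%). All 6 inhibitor libraries lay above all Control libraries for 2 chaperones, Dnajb12 and Dnajc30 (all genes 2.19%), and below them for 5, Hspd1, Dnajc12, Dnajc16, Dnajc13 and Hspa5 (all genes 2.92%). The median half-width of a chaperone's 95% interval was 0.19 on the log2 scale in each inhibitor comparison.

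**Figure D3:**
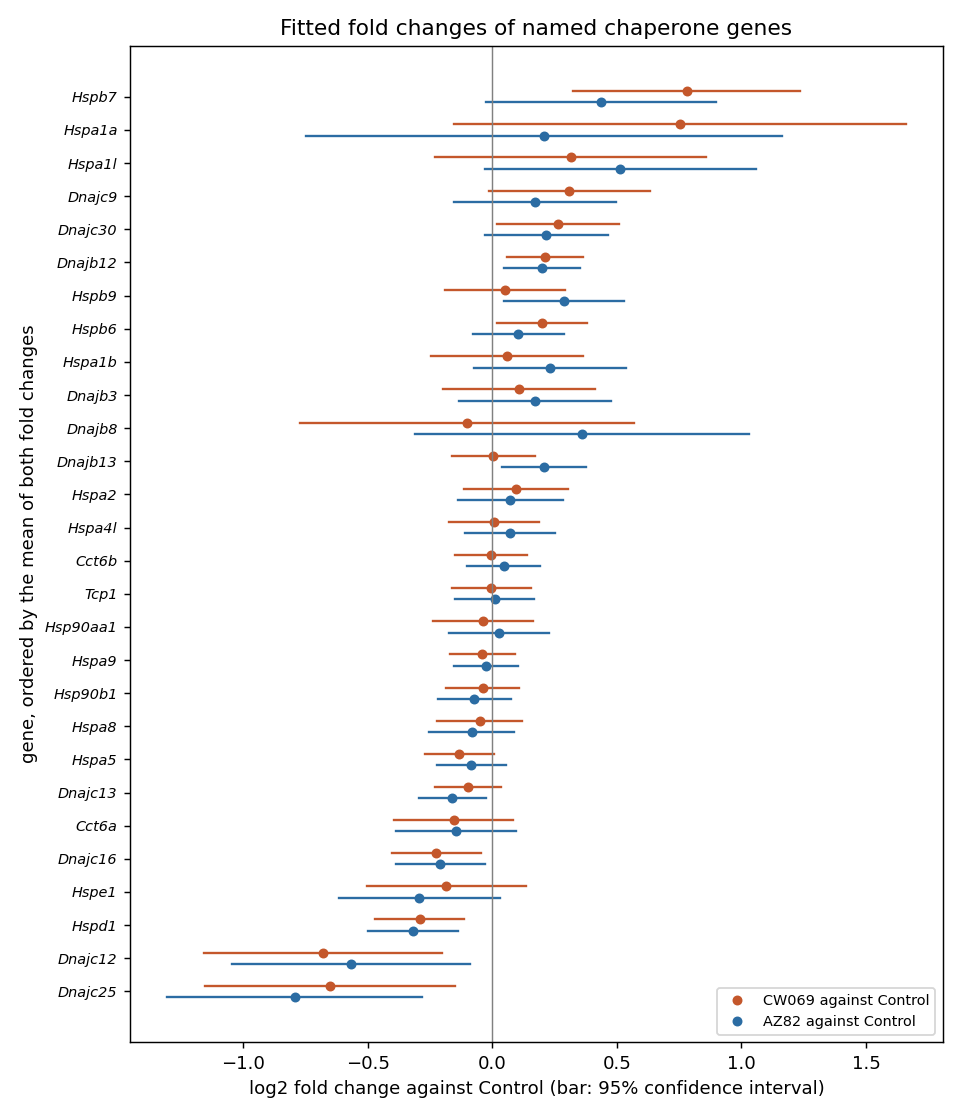
Log2 fold changes from edgeR (x axis) of 28 named chaperone genes (y axis) in CW069 against Control and AZ82 against Control, with 95% confidence intervals, ordered by the mean of both. Hspd1, Dnajc12, Dnajc25 and Dnajc16 lie below 0 and Dnajb12 above 0 in both comparisons with intervals that leave out 0, and none passed the test after adjustment.

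Hspd1, which encodes the mitochondrial chaperonin Hsp60, was lower in both inhibitor groups than in Control without passing the test. Its level was 48.4, 47.4 and 42.6 CPM in CW069 1 to 3, 44.6, 42.4 and 48.7 CPM in AZ82 1 to 3 and 55.5, 60.5 and 53.3 CPM in Control 1 to 3. All 6 inhibitor libraries lay below all 3 Control libraries. The log2 fold change was -0.29 ± 0.081 (SE) in CW069 (95% interval -0.47 to -0.11; unadjusted p = 0.00450, edgeR adjusted p = 0.524) and -0.32 ± 0.082 in AZ82 (-0.50 to -0.14; unadjusted p = 0.00261, edgeR adjusted p = 0.554). The unadjusted p stayed under 0.05 in 16 of 16 alternative analyses for CW069 and 16 of 16 for AZ82, while the adjusted p ranged over 0.350 to 0.817 and 0.351 to 0.829. Without Control 3 the log2 fold changes were -0.33 in CW069 and -0.36 in AZ82.

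Its co-chaperonin partner Hspe1 (Hsp10), which shares the promoter printed above, was measured at lower counts. It stood at 11.2, 10.8 and 9.77 CPM in CW069, at 9.10, 11.1 and 9.16 CPM in AZ82 and at 11.9, 14.2 and 9.91 CPM in Control. The groups overlapped, since Control 3 lay among the inhibitor libraries. The log2 fold change was -0.19 ± 0.14 (SE) in CW069 (edgeR adjusted p = 0.774) and -0.29 ± 0.15 in AZ82 (edgeR adjusted p = 0.583), and it depended on which Control library was left out. It was -0.31 and -0.42 without Control 3, and -0.048 and -0.16 without Control 2. Hspa9, the Hsp70 of the mitochondrial matrix that works with them, stood at 309 ± 10.3 CPM in CW069, 312 ± 5.45 CPM in AZ82 and 318 ± 6.80 CPM in Control (SD, n = 3 each), with log2 fold changes of -0.040 and -0.026. The matrix J-protein Dnaja3 gave -0.081 in CW069 and 0.035 in AZ82. In a list of mitochondrial folding genes that holds Hspd1 and Hspe1, 0 of 17 tested were called, with 6 above 0 and 11 below in CW069 (median -0.044) and 9 above and 8 below in AZ82 (median 0.034).

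Levels of markers of other testis cells are given beside these genes. Markers of Leydig cells, which make testosterone, summed to 1694 to 1767 CPM in CW069, 1791 to 2101 CPM in AZ82 and 2044 to 2191 CPM in Control. In that list, 12 of 12 lay below 0 in CW069 and 10 of 12 in AZ82. Spermatogonial markers summed to 118.5 to 126.6 CPM in CW069, 116.9 to 135.6 CPM in AZ82 and 129.3 to 139.7 CPM in Control, with 9 of 10 and 8 of 10 below 0. Macrophage markers summed to 158.6 to 212.9 CPM in CW069, 154.3 to 213.6 CPM in AZ82 and 202.3 to 257.4 CPM in Control, with 8 of 9 and 7 of 9 below 0. Markers of Sertoli cells, the nurse cells of the tubule, summed to 1141 to 1404 CPM in CW069, 1076 to 1239 CPM in AZ82 and 1225 to 1319 CPM in Control, with 4 of 14 below 0 in CW069 and 13 of 14 in AZ82. In these 4 lists 0 markers were called and none was at 0 in any library. The AZ82 sums overlapped Control in all 4 lists, whereas the CW069 sums lay below every Control library in the Leydig and spermatogonial lists. At an unadjusted p under 0.05 from edgeR, 7 of 12 Leydig markers were lower in CW069 (all genes 3.71%) and 5 in AZ82 (all genes 4.79%). The part of these cells in the values of Hspd1 and of the other lower chaperones was not tested.

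The J-proteins that were lower than in Control at an unadjusted p under 0.05 all belonged to class C, a mixed class that shares only the J domain. Dnajc25, a membrane J-protein, had 6.51, 7.19 and 10.8 CPM in CW069, 9.60, 6.71 and 5.99 CPM in AZ82 and 12.4, 10.8 and 15.5 CPM in Control. AZ82 did not overlap Control, and CW069 3 lay just above Control 2. In log2 terms the difference was -0.65 ± 0.23 (SE) in CW069 (unadjusted p = 0.0158, edgeR adjusted p = 0.585) and -0.79 ± 0.23 in AZ82 (unadjusted p = 0.00586, edgeR adjusted p = 0.554). Without Control 3 it was -0.50 and -0.64. Dnajc12, a partner of the aromatic amino acid hydroxylases, was scarce at 26 to 57 counts per library. Its levels were 2.40, 2.46 and 1.65 CPM in CW069, 2.40, 1.86 and 2.74 CPM in AZ82 and 3.24, 3.34 and 3.79 CPM in Control, with no overlap of either inhibitor with Control. On the log2 scale Dnajc12 differed by -0.68 ± 0.22 (SE) in CW069 (unadjusted p = 0.00951, edgeR adjusted p = 0.539) and -0.57 ± 0.22 in AZ82 (unadjusted p = 0.0245, edgeR adjusted p = 0.554).

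Dnajc16, a J-protein of the endoplasmic reticulum, had 38.6, 44.8 and 44.7 CPM in CW069, 43.9, 42.8 and 42.8 CPM in AZ82 and 48.7, 46.8 and 54.2 CPM in Control, again without overlap. Its log2 fold change was -0.22 ± 0.080 (SE) in CW069 and -0.21 ± 0.081 in AZ82 (edgeR adjusted p = 0.614 and 0.554). Without Control 3 it was -0.16 and -0.15, with unadjusted p from edgeR's fit of all genes of 0.0803 and 0.102. Dnajc13, which acts on clathrin at endosomes, had 68.1, 68.2 and 67.9 CPM in CW069, 62.8, 64.4 and 68.4 CPM in AZ82 and 70.8, 75.6 and 72.2 CPM in Control. Both inhibitors lay below Control, with log2 fold changes of -0.098 ± 0.060 (SE) in CW069 and -0.16 ± 0.061 in AZ82 (edgeR adjusted p = 0.734 and 0.554). Over class C, 15 of 28 lay above 0 in CW069 and 16 in AZ82, with medians of 0.022 and 0.024. Class A, which holds the general Hsp70 partners, had 1 of 4 above 0 in CW069 and 2 in AZ82.

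Dnajb12 and Dnajc30 were the J-proteins higher in all 6 inhibitor libraries than in Control, again without passing the test. Dnajb12 sits in the membrane of the endoplasmic reticulum and takes part in the removal of misfolded membrane proteins. It had 61.1, 59.0 and 65.7 CPM in CW069, 63.2, 58.4 and 62.7 CPM in AZ82 and 56.4, 52.4 and 51.7 CPM in Control. The log2 fold change was 0.21 ± 0.069 (SE) in CW069 (95% interval 0.059 to 0.36; unadjusted p = 0.0114, edgeR adjusted p = 0.539) and 0.20 ± 0.069 in AZ82 (0.046 to 0.35; unadjusted p = 0.0158, edgeR adjusted p = 0.554). Without Control 3 it was 0.19 and 0.17. Dnajc30, an intronless gene whose product is mitochondrial, had 15.8, 18.9 and 15.4 CPM in CW069, 15.5, 17.8 and 15.2 CPM in AZ82 and 15.0, 13.4 and 13.4 CPM in Control. The gap between AZ82 3 and Control 1 was small, and the log2 fold change was 0.26 ± 0.11 (SE) in CW069 and 0.22 ± 0.11 in AZ82 (edgeR adjusted p = 0.666 and 0.587), with 0.17 in CW069 without CW069 2 and 0.14 in AZ82 without AZ82 2.

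**Figure D4:**
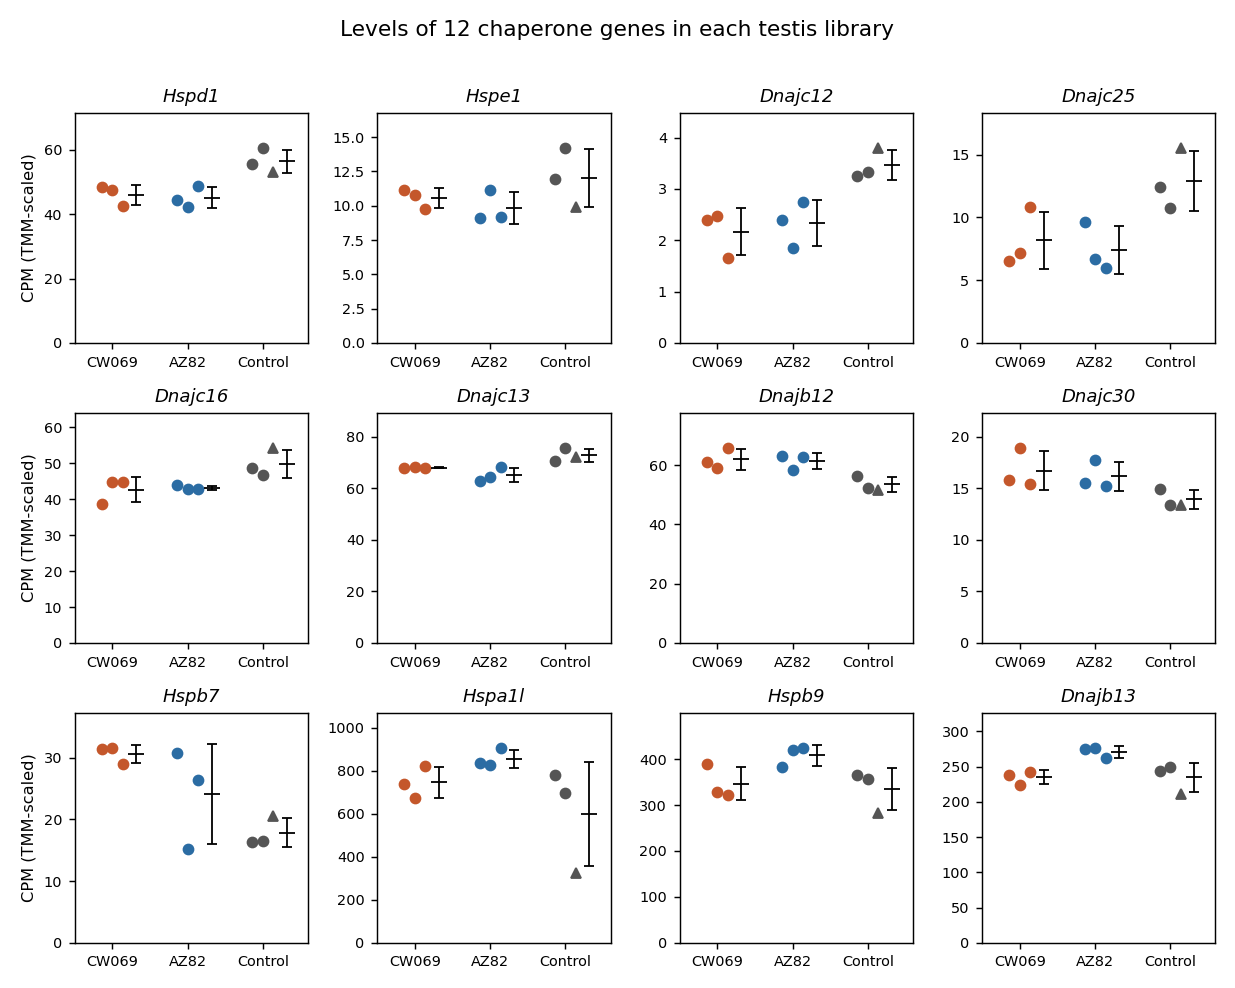
CPM (y axes from 0) of 12 chaperone genes in the 3 libraries each of CW069, AZ82 and Control; points are libraries, the triangle is Control 3, and the black bar is the mean ± SD (n = 3). Hspd1, Dnajc12, Dnajc16 and Dnajc13 lie below every Control library in both inhibitor groups and Dnajb12 and Dnajc30 above, whereas the Control 3 triangle of Hspa1l, at 323 CPM, lies below every other library.

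Among the small heat shock proteins, Hspb7, known from heart and muscle, had the smallest p of any chaperone in CW069 against Control. It had 31.4, 31.6 and 29.0 CPM in CW069, 30.8, 15.1 and 26.4 CPM in AZ82 and 16.4, 16.6 and 20.6 CPM in Control. CW069 lay above Control throughout, while AZ82 2 lay below every Control library. The log2 fold change in CW069 was 0.78 ± 0.21 (SE; 95% interval 0.32 to 1.24; unadjusted p = 0.00325, edgeR adjusted p = 0.524), with a DESeq2 adjusted p of 0.0860 and adjusted p over the 16 alternatives of 0.0860 to 0.817. In AZ82 it was 0.44 ± 0.21 (SE; edgeR adjusted p = 0.574), 0.68 without AZ82 2 and 0.22 without AZ82 1. Hspb6, the small heat shock protein of smooth muscle, had 38.4, 39.6 and 34.8 CPM in CW069, 37.5, 34.4 and 33.7 CPM in AZ82 and 30.2, 33.2 and 34.8 CPM in Control. Its log2 fold changes were 0.20 ± 0.082 and 0.10 ± 0.082 (SE; edgeR adjusted p = 0.661 and 0.696). Markers of peritubular myoid cells, the contractile cells around the tubules, summed to 537.7 to 557.1 CPM in CW069, 539.5 to 575.0 CPM in AZ82 and 417.5 to 549.5 CPM in Control. The low end of the Control range was Control 3, while Control 1 and Control 2, at 549.5 and 540.6 CPM, lay within the range of CW069. With Control 3 kept in, 7 of 7 of these markers lay above 0 in CW069 and 4 of 7 in AZ82. None was at 0 in any library, and their part in the Hspb7 and Hspb6 values was not tested. Hspb1 and Hspb8, the stress-responsive members, gave log2 fold changes of -0.096 and -0.14 in CW069 and -0.15 and -0.0087 in AZ82. Hspb11, a part of intraflagellar transport, gave 0.11 in CW069 and 0.071 in AZ82. Hspb2 and Hspb3, which were not tested, had 52 and 2 counts over the 9 libraries.

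Several germ-cell chaperones had values in Control 3 that set their Control mean. Hspa1l, the spermatid Hsp70, had 739, 674 and 821 CPM in CW069, 834, 826 and 904 CPM in AZ82 and 778, 696 and 323 CPM in Control. AZ82 lay above both other groups, and Control 3 below every other library. Its log2 fold change was 0.31 ± 0.25 (SE) in CW069 and 0.51 ± 0.25 in AZ82 (edgeR adjusted p = 0.774 and 0.574), and without Control 3 it was 0.016 and 0.21. Without Control 1 the Hspa1l value in CW069 was 0.55. Hspb9 had 389, 329 and 322 CPM in CW069, 382, 420.0 and 424 CPM in AZ82 and 365, 358 and 283 CPM in Control. AZ82 lay above Control, with a log2 fold change of 0.29 ± 0.11 (SE; unadjusted p = 0.0244, edgeR adjusted p = 0.554), 0.17 without Control 3. In CW069 the Hspb9 value was 0.049, and -0.060 without Control 3. Dnajb13, of the sperm tail, had 239, 224 and 243 CPM in CW069, 275, 276 and 262 CPM in AZ82 and 243, 249.6 and 211 CPM in Control. AZ82 lay above both other groups, with a log2 fold change against Control of 0.21 ± 0.076 (SE; unadjusted p = 0.0198, edgeR adjusted p = 0.554), 0.13 without Control 3, and that of CW069 was 0.0030.

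Dnajb8, a J-protein that holds back protein aggregation, had 185, 170.3 and 208 CPM in CW069, 228, 255 and 294 CPM in AZ82 and 281, 233 and 91.7 CPM in Control. Control 3 was again the lowest library, and the other Control libraries lay within the range of AZ82. The log2 fold change of Dnajb8 was -0.10 in CW069 and 0.36 in AZ82 with all libraries, and -0.45 and 0.0085 without Control 3 (unadjusted p = 0.00257 and 0.943 in edgeR's fit of all genes). Without Control 1 the Dnajb8 value was 0.21 in CW069 and 0.67 in AZ82. Dnajb3 stood at 286 CPM in Control 3 and at 395 to 447 CPM in the other 8 libraries. Its log2 fold changes were 0.11 in CW069 and 0.17 in AZ82, and -0.071 and -0.010 without Control 3. Dnajb7 and Dnajc5b lay -0.67 and -0.61 on the log2 scale from the mean of the other Control libraries there. Dnajc9, a J-protein that binds histones, had log2 fold changes of 0.31 in CW069 and 0.17 in AZ82, and of 0.12 and -0.017 without Control 3. Class B as a whole had 8 of 13 genes above 0 in CW069 and 11 in AZ82, and 4 and 10 without Control 3. Elongating spermatid markers summed to 18050 to 20750 CPM in CW069, 21660 to 25380 CPM in AZ82 and 10520 to 23310 CPM in Control. The low end of the Control range was Control 3. Control 1 and Control 2 stood at 23310 and 21090 CPM, above every CW069 library. With Control 3 kept in, 9 of 12 markers lay above 0 in CW069 and 12 of 12 in AZ82. Round spermatid markers summed to 2690 to 2882 CPM in CW069, 2740 to 2920 CPM in AZ82 and 2404 to 2700 CPM in Control. Control 3 was again the lowest, with Control 1 and Control 2 at 2579 and 2700 CPM. Of these 12 markers, 10 lay above 0 in CW069 and 11 in AZ82, and 0 were called. No marker of either list was at 0 in any library, and their part in the values of the germ-cell chaperones was not tested.

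Hspa2, the meiotic Hsp70, was highest of the Control libraries in Control 3. It stood at 1219, 1289 and 1324 CPM in CW069, at 1375, 1250.0 and 1144 CPM in AZ82 and at 1079, 1175 and 1331 CPM in Control. The groups overlapped, with log2 fold changes of 0.096 ± 0.094 in CW069 and 0.072 ± 0.094 in AZ82 (SE; 95% intervals -0.11 to 0.31 and -0.14 to 0.28; edgeR adjusted p = 0.822 and 0.819). Without Control 3 they were 0.18 and 0.15, and without Control 1 0.028 and 0.0046. Spermatocyte markers summed to 6101 to 6711 CPM in CW069, 6246 to 6480 CPM in AZ82 and 6042 to 6244 CPM in Control.

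The heat-inducible genes had values on both sides of 0. Hspa1b stood at 6.94 ± 0.286 CPM in CW069, 7.81 ± 1.01 CPM in AZ82 and 6.65 ± 0.750 CPM in Control (SD, n = 3 each). Hspa1a, the near-identical copy, had 2.94, 2.94 and 1.25 CPM in CW069, 1.38, 1.36 and 2.09 CPM in AZ82 and 1.38, 2.05 and 0.732 CPM in Control, with overlapping groups and a log2 fold change of 0.75 ± 0.41 in CW069 (SE; edgeR adjusted p = 0.702). That value was 0.45 without Control 3 and 1.15 without Control 2. Dnajb1, the J-protein that escorts inducible Hsp70, gave 0.037 in CW069 and 0.047 in AZ82, with 95% intervals of -0.097 to 0.17 and -0.087 to 0.18. Of the genes with a 3-unit element besides Hspd1 and Hspe1, Hsph1 gave -0.15 in CW069 and 0.023 in AZ82, and Dnajb6 gave 0.070 and -0.069. Hsph1 in CW069 was -0.057 without Control 2, and in AZ82 0.11; Dnajb6 was 0.022 in CW069 without Control 3, and in AZ82 -0.15 without AZ82 2 and -0.023 without AZ82 3. In a list of 17 heat-inducible genes, 0 were called, with 5 above 0 and 12 below in CW069 (median -0.093) and 8 above and 9 below in AZ82 (median -0.0087). Chordc1, a co-chaperone of Hsp90, gave -0.20 ± 0.088 in CW069 and -0.21 ± 0.089 in AZ82 (SE; edgeR adjusted p = 0.675 and 0.554). Of 6 tested heat shock factors and related regulators, 0 were called, with 5 above 0 in CW069 and 4 in AZ82; Hsf1, the main activator, gave 0.070 in CW069.

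The 8 chaperones given next are mostly constitutive or organelle forms, with the inducible Hsp90aa1 among them. Their 95% intervals included 0 in CW069 against Control and in AZ82 against Control. Hsp90aa1 stood at 1377 ± 106 CPM in CW069, 1439 ± 101 CPM in AZ82 and 1412 ± 125 CPM in Control (SD, n = 3 each), and Hsp90ab1 at 350.2 ± 17.9 CPM in CW069, 326 ± 18.4 CPM in AZ82 and 352 ± 15.4 CPM in Control. Hspa8 gave log2 fold changes of -0.051 in CW069 and -0.084 in AZ82, Hspa4 0.047 and 0.038, and Hspa4l 0.0062 and 0.070. Hspa5 (BiP), the Hsp70 of the endoplasmic reticulum, had 523, 481 and 478 CPM in CW069, 510.5, 520.2 and 501 CPM in AZ82 and 541, 534 and 549.7 CPM in Control. All 6 inhibitor libraries lay below Control, with log2 fold changes of -0.13 ± 0.062 in CW069 and -0.085 ± 0.062 in AZ82 (SE; edgeR adjusted p = 0.689 and 0.674). Its partner Hsp90b1 gave -0.038 in CW069 and -0.074 in AZ82. Hspa13, another Hsp70 of that compartment, gave -0.19 ± 0.095 and -0.20 ± 0.096 (SE; edgeR adjusted p = 0.690 and 0.578). For the mean of both inhibitors its value, -0.19, was the lowest of the Hsp70 genes. In that comparison 1 Hsp70 gene was lower at an unadjusted edgeR p under 0.05, and 0 were called. In an endoplasmic reticulum stress list of 25 genes, 0 were called, with 10 above 0 and 15 below in CW069 and 11 above and 14 below in AZ82. Xbp1, a transcription factor of that response, gave -0.24 ± 0.11 in AZ82 (SE; edgeR adjusted p = 0.569). Creld2 and Sdf2l1, of the same list, went the other way in AZ82, at 0.16 ± 0.0785 and 0.22 ± 0.13 (SE, edgeR adjusted p = 0.574 and 0.614).

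The 9 genes of the cytosolic chaperonin had log2 fold changes of -0.16 to 0.034 in CW069 (median -0.0056, 1 above 0) and of -0.15 to 0.061 in AZ82 (median 0.019, 7 above 0). Without Control 3, 3 lay above 0 in CW069 and 5 in AZ82. Tcp1 stood at 1644 ± 104 CPM in CW069, 1660.0 ± 61.9 CPM in AZ82 and 1650.0 ± 52.8 CPM in Control (SD, n = 3 each), with 95% intervals of -0.16 to 0.15 and -0.15 to 0.17 for its log2 fold changes. Cct6a, the general form of the sixth subunit, gave -0.16 ± 0.11 in CW069 and -0.15 ± 0.11 in AZ82 (SE; edgeR adjusted p = 0.757 and 0.679). These Cct6a values were -0.082 and -0.077 without Control 2, and in AZ82 -0.075 without AZ82 3, -0.094 without AZ82 1, -0.28 without AZ82 2 and -0.22 without Control 3, while the testis form Cct6b gave -0.0050 and 0.045. Among 21 partners of the chaperonin and of prefoldin, 0 were called, with 10 above 0 in CW069 and 8 in AZ82. Pdcl, a phosducin-like protein, gave -0.26 ± 0.12 in CW069 and -0.25 ± 0.12 in AZ82 (SE; edgeR adjusted p = 0.685 and 0.574). In the other direction, Pfdn6 gave 0.10 ± 0.072 in CW069 and Pfdn5 0.19 ± 0.094 in AZ82 (SE, edgeR adjusted p = 0.753 and 0.585). Among 43 tested co-chaperones of Hsp70 and Hsp90, 0 were called, with 21 above 0 in CW069 and 23 in AZ82. Sgta, which hands on tail-anchored proteins, gave 0.21 ± 0.066 in CW069 (SE; edgeR adjusted p = 0.539). Fkbp5, of the same list, went the other way in CW069, at -0.29 ± 0.10 (SE, edgeR adjusted p = 0.617).

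Between the inhibitors, whose doses differ, the values stand side by side. With all libraries Dnajb13 had the smallest p, with a log2 fold change in CW069 against AZ82 of -0.20 ± 0.076 (SE; 95% interval -0.37 to -0.037; unadjusted p = 0.0212, edgeR adjusted p = 0.962) and every CW069 library below every AZ82 library. Dnajb8 had the lowest log2 fold change, -0.46, also with every CW069 library below every AZ82 library. Without Control 3, 5 chaperones were lower at an unadjusted edgeR p under 0.05 (all genes 4.27%) and 0 higher (all genes 3.03%). The smallest edgeR adjusted p was then that of Dnajb8, at 0.217. Hspb9 gave -0.24 ± 0.11 and Hsph1 -0.17 ± 0.080 (SE; edgeR adjusted p = 0.999 and 0.999), Dnajb6 0.14 ± 0.079 and Hspb7 0.34 ± 0.20 (edgeR adjusted p = 0.999 and 0.999). Hspb7 was 0.096 without AZ82 2 and 0.56 without AZ82 1, and Dnajb6 0.22 without AZ82 2. Hspd1 gave 0.028 (95% interval -0.15 to 0.21). The chaperonin genes lay between -0.050 and -0.0096. Of the elongating spermatid markers, 11 of 12 lay below 0 in CW069 against AZ82, and their part in these values was not tested.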

How the data were processed

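Whole-testis mRNA was sequenced in 9 libraries, 3 each after CW069, AZ82 and PBS. The authors deposited raw read counts per gene; per the submitters' processing notes, Trimmomatic, HISAT2 and HTSeq were used with build GRCm39. Each library's own counts matched the joint table in all 19991 genes. Tests used edgeR 4.0.16 in R 4.3.3 (filtering by group, TMM scaling, quasi-likelihood fit of all 9 libraries with 6 residual degrees of freedom), with p-values adjusted over 15834 genes and called under 0.05. In simulated counts the fit recovered 77.0% of 2-fold changes in AZ82 against Control (15713 genes), with 18 false calls among 172, a share above 0.05. The simulation held 2-fold changes only and no outlying library such as Control 3. It therefore does not give the recovery of the smaller changes reported here. CPM used TMM library sizes, and levels per kb used coding transcript lengths of GENCODE M21. DESeq2 1.42.0, limma-voom (limma 3.58.1), RLE scaling, library size alone, other filters, a replicate block, each library left out, and other transcript lengths were alternatives; the RefSeq-linked lengths and the counts without Control 3 were chosen after seeing the data.

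The genes and lists were chosen with earlier results of these data known. The rule for naming genes took Hspa2, Hspa1l, Hspd1, the 10 highest per length, groups lying apart, and the paralog and organelle forms. It also took the 5 per direction with the smallest p in each comparison. Of the genes so taken, Dnajc1, Dnajb5, Dnajb14, Dnajc18 and Dnajc5g are not given, and Hspa13 is given although the rule did not take it. From other lists, only some of the 2 per direction with the smallest p are given. Dnaja3, Dnajb1, Dnajb7, Hspb1, Hspb2, Hspb3, Hspb8 and Hspb11 were added for their roles after their values were seen. Replicate numbers were not used to pair the samples, since same-numbered libraries did not deviate together, which does not exclude a pairing.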

Additional observations from a re-analysis of the deposited data

How the results depend on the processing

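No alternative, tool or left-out library called a chaperone in any of the 4 comparisons: the number called stayed at 0 throughout. Under library size alone the median log2 fold change of the tested chaperones was -0.050 in AZ82 against Control, -0.052 in CW069 against Control, 0.017 in CW069 against AZ82 and -0.052 for the mean of both inhibitors against Control, where all genes had -0.081, -0.051, 0.031 and -0.067. Leaving out each library in turn, the median ranged from -0.011 (without Control 3) to 0.054 (without Control 2) in AZ82 against Control, from -0.031 (without Control 3) to 0.024 (without CW069 2) in CW069 against Control, from -0.024 to -0.0030 in CW069 against AZ82, and from -0.018 (without Control 3) to 0.032 for the mean of both. Of the counts called, medians and orders per length under alternatives, 7 values moved and 190 stayed near those reported. A median was taken as near when it moved by less than 0.029, a margin about as large as the medians themselves. A near median could therefore change sign, as in CW069 against Control under RLE scaling (0.0037, where -0.0052 was reported). Of 2624 log2 fold changes of named chaperones under alternatives, 136 changed sign, 27 of them under library size alone and 22 without Control 3; none of these had an unadjusted p under 0.05 in the fit reported, and the largest in size was 0.21. The cause was not tested. With the replicate number as a block, the medians were 0.031 in AZ82 and -0.0052 in CW069. They were -0.014 in CW069 against AZ82 and 0.011 for the mean of both, again with 0 calls. Same-numbered libraries had correlations of deviations between -0.17 and 0.047. These show no pairing by number but cannot exclude it, since deviations from a mean of 3 libraries are tied to each other. Scarce genes such as Hspa1a, Dnajc12 and Dnajc25 are limited by their counts. A difference smaller than the half-width of a gene's interval could not be told from 0 at this depth with 3 libraries a group. A larger difference could also go uncalled, because the interval takes each gene alone and the calls used p-values adjusted over all tested genes. Hspd1 in CW069 against Control had an interval that left out 0 and an edgeR adjusted p of 0.524.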
